A study of Mus musculus with 12 samples.

Results

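Satellite cells lacking Cxcr4 were compared with WT satellite cells after overnight culture, using 2 Cxcr4 KO and 2 WT RNA-seq samples, which are 4 of the 12 samples of the series. The members are the activated samples as the labels name them, and every gene with enough reads was compared between the genotypes. The question the comparison addresses is which genes depend on the receptor once the cells have left quiescence. WT mice were CXCR4 FL/FL; Pax7-ZsGreen without cre, and KO mice carried the same alleles together with Pax7-creERT2, a tamoxifen-dependent cre driven by Pax7 and so restricted to satellite cells, which removes the floxed exon 2 of Cxcr4 in Pax7+ cells. Mice of both genotypes were adult (3 to 4 months) and received tamoxifen at 80 mg/kg on 5 days. The Pax7-ZsGreen+ cells of the hind limb muscles were sorted and kept overnight in growth medium before RNA was taken, so that genotype here means the floxed allele with and without cre, and no sample carries cre without the floxed allele. The labels do not say whether the 2 samples of a genotype came from different mice, and p-values measure only the spread between samples, which may be technical. The other 8 samples, 4 per genotype, were freshly sorted quiescent cells and serve here to estimate the spread and as the second state.

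Satellite cells are the resident stem cells of skeletal muscle. They rest in G0 under the basal lamina, marked by the transcription factor Pax7, and after injury or isolation they enlarge, translate Myod1 and enter a slow first cell cycle before they divide rapidly or fuse. CXCR4 is the G protein-coupled receptor for the chemokine CXCL12, and signals through Gi proteins, ERK and PI3 kinase. Entry into S phase is gated by the retinoblastoma proteins, which hold E2F factors silent until cyclin D and cyclin E kinases phosphorylate them, after which E2F turns on the genes of DNA replication, and Foxm1 and B-Myb later turn on those of mitosis.

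The activated samples held 3172164 to 5427280 counts on genes, and the ribosomal RNA gene CT010467.1 took 11.5% to 40.3% of them, against 0.295% to 0.807% in the quiescent samples. With 10344 to 13411 genes at 10 or more counts, the activated samples covered fewer genes than the quiescent samples, where 19717 to 23436 genes reached that level. WT replicate 2 had the fewest genes, 10344, and the largest ribosomal share, 40.3%, which left it 1892996 other counts. The ribosomal share was 12.6% in WT replicate 1 and 11.5% and 28.8% in KO replicates 1 and 2. Levels are given as CPM, the count of a gene relative to the total of its library after scaling by edgeR's TMM factors, and 3 counts correspond to 0.49 to 1.31 CPM in these samples. Over 12232 genes the log2 CPM of the samples correlated between 0.884 and 0.929, and the closest pair was WT replicate 2 with KO replicate 1, not a pair of one genotype. WT replicate 1 had the highest mean log2 CPM of the samples in the endothelial, tendon, immediate early and NF-kB lists. The summed level of 14 endothelial markers was 1104 CPM in WT replicate 1, 217 CPM in WT replicate 2, 232 CPM in KO replicate 1 and 733 CPM in KO replicate 2, and that of 8 tendon markers was 616, 141, 120 and 154 CPM in the same order. Where leaving out 1 sample moved the median of a gene list, the values without it are given.

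Markers of satellite cells were detected in every cultured sample, several of them far below their quiescent levels. Pax7 had 111 and 107 CPM in WT replicates 1 and 2 and 129 and 71.2 CPM in KO replicates 1 and 2. In quiescent WT cells it had 392 ± 85.0 CPM, and Chodl, Myf5 and Vcam1 had 631 ± 15.2, 128 ± 7.36 and 335 ± 30.6 CPM (SD, n = 4). After culture Chodl had 9.58 to 15.2 CPM and Myf5 6.37 to 13.6 CPM over the 4 samples. Myod1, the transcription factor that commits these cells to muscle, had 1285 and 1749 CPM in WT and 1886 and 1260 CPM in KO. In both genes the genotypes overlapped, as they did in Sdc4, Myf5 and Chodl, while Itga7 and Vcam1, a pair of surface markers used to sort these cells, lay lower and Cdh15, the muscle cadherin, lay higher in both KO samples without passing the test. Itga7 had 284 and 237 CPM in WT and 204 and 141 CPM in KO, with a log2 fold change of -0.60 (SE 0.39). Vcam1 had 51.1 and 37.7 CPM in WT and 31.6 and 9.13 CPM in KO, with a log2 fold change of -1.14 (SE 0.44).

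Cxcr4 itself (ENSMUSG00000045382, chr1:128588199-128592293, minus strand, GRCm38) was lower in both KO samples but did not pass the test. It had 33.3 and 14.4 CPM in WT (204 and 33 counts) and 5.39 and 13.7 CPM in KO (21 and 60 counts). WT replicate 2 and KO replicate 2 therefore nearly met, and WT replicate 1 was the high sample. The log2 fold change was -1.35 (SE 0.46, adjusted p = 0.381), and in the fits that each left out 1 activated sample it ranged from -2.24 to -0.69. In quiescent cells the same test gave -2.24 (SE 0.31), with 80.5 ± 25.3 CPM in WT against 17.1 ± 3.54 CPM in KO, SD over 4 samples each. The difference between the states was 0.89 (SE 0.55, unadjusted p = 0.121 by edgeR). Counts were made over the whole gene, so reads of the exon left in place are included. Among partners in the pathway, the scavenging receptor Ackr3 had 43.0 and 30.2 CPM in WT and 26.2 and 29.7 CPM in KO.

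Of 25771 genes tested, 13 passed in cultured cells, which is 0.0504% of them (adjusted p under 0.05, a log2 fold change beyond 1 and a mean normalized count over 10). Of these, 8 rose in the KO (0.031%) and 5 fell (0.0194%). The genes that fell were Rrm2, Mcm4, Foxm1, Klhl25 and Ngfr, and those that rose were Sntb1, Pdlim3, Myh8, S100a1, Rb1, Sord, Fbxl16 and AW551984. At an unadjusted p under 0.05 there were 1098 genes higher and 1060 lower in the KO, and the median log2 fold change over all genes was 0. DESeq2 on the same 12 samples called 58 genes higher (0.225%) and 87 lower (0.338%), the 13 among them, and in 137 of its 145 genes both KO samples lay on one side of both WT samples. Fitted on the activated samples alone, edgeR called 3 genes, 0 of them among the 13, and DESeq2 called 29, with 8 of the 13 among them. The number of edgeR calls depended strongly on single samples: it was 0 without WT replicate 1 (smallest adjusted p 0.142, 1371 genes at an unadjusted p under 0.05), 209 without WT replicate 2, 59 without KO replicate 1 and 2 without KO replicate 2. All 13 genes kept their direction in each of those fits. Both KO samples lay on one side of both WT samples in all 13, so leaving out 1 sample could hardly turn them. Without WT replicate 1 their adjusted p ranged from 0.142 to 0.663, without WT replicate 2 all but Fbxl16 passed, without KO replicate 1 all but Foxm1, Klhl25, Ngfr and Fbxl16 passed, and without KO replicate 2 Sntb1 alone of the 13 passed. In bulk samples fewer cells of a type and less RNA per cell cannot be told apart.

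**Figure D1:**
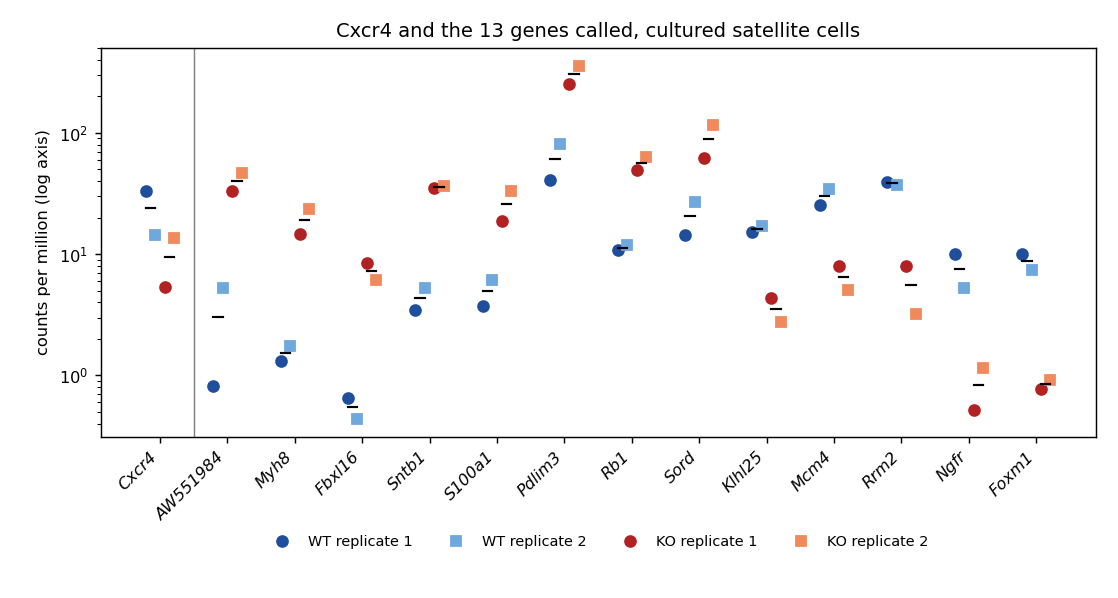
Level of Cxcr4 and of the 13 genes that passed in each of the 4 cultured samples, in CPM on a log axis, with a black line at the mean of each genotype. For the 13 genes the WT and KO points do not overlap, whereas for Cxcr4 WT replicate 2 (14.4) and KO replicate 2 (13.7) nearly meet.

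To read the changes of single genes against the rest, both KO samples lay above both WT samples in 15.2% and below them in 9.5% of all genes tested. Among the 14919 genes with a mean normalized count over 10 these shares were 20.7% and 13.6%. The pathway lists below were scored by the same count and by their median log2 fold change.

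The machinery of DNA synthesis lay lower in the KO. Of 43 S-phase and DNA replication genes, all tested, 2 fell, none rose, and 21 lay below WT in both KO samples against 1 above. Their median log2 fold change was -0.62, against 0 over all genes. It was negative for each of the 4 pairs of a KO and a WT sample (-0.83 to -0.29) and between -0.83 and -0.56 when any 1 sample was left out. In quiescent cells the median of the list was 0.06.

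Stretches upstream of 4 genes of these results are shown to let the letters of the promoters be seen beside the values. They run from 200 to 30 bases before a start site that RefSeq gives on GRCm38.p6, 5′ to 3′ on the strand of the gene. Where RefSeq gives several starts for a gene, the stretch with most motif matches is shown. Those of Rrm2, Mki67 and Pdlim3 stop short of the annotated gene. That of Uhrf1 belongs to an inner start and lies within the annotated gene (chr17:56303321-56323486). Capitals mark motif letters found on either strand: TTTCGCGC and TTTGGCGC (E2F), CCAAT or its complement ATTGG (the NF-Y box), TTTGAA (the cell cycle homology region, CHR, of mitotic genes), CAGCTG (an E-box that MyoD binds), TGACTCA (AP-1) and TGACGTCA (the cAMP response element). No motif contains another. Rrm2 and Uhrf1 stand for DNA synthesis, Mki67 for mitosis and Pdlim3 for muscle proteins.
Rrm2, chr12:24708054-24708224, plus strand: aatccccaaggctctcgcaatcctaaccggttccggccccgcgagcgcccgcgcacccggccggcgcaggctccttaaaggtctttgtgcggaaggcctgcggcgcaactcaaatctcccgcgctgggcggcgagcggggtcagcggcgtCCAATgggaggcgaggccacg
Uhrf1, chr17:56304113-56304283, plus strand: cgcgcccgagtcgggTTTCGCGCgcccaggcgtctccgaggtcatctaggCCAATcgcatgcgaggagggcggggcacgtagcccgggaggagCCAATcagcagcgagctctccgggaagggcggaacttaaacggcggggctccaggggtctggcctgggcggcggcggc
Mki67, chr7:135716409-135716579, minus strand: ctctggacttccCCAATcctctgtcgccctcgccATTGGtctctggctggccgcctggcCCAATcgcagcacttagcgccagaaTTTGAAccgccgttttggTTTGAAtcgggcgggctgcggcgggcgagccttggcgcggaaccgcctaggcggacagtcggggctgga
Pdlim3, chr8:45885287-45885457, plus strand: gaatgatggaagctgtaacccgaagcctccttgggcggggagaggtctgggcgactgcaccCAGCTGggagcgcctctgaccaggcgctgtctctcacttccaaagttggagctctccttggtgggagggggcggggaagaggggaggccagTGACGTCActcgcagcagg

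Uhrf1 held 1 E2F match 185 bases before the inner start and CCAAT boxes at 150 and 107 bases, and Rrm2 held 1 CCAAT box at 50 bases. Mki67 held CHR letters at 116 and 98 bases, downstream of 3 CCAAT boxes at 188, 166 and 141 bases. Pdlim3 held an E-box at 139 bases and a cAMP response element at 48 bases. In the RefSeq windows of 300 bases (250 before to 50 after the start), 35 of the 43 replication genes were present and 10 of them (28.6%) held either E2F form, as did 0.929% of all 27025 genes with a window. Genes with overlapping E2F forms were counted once. Of 26 mitotic genes with a window, 18 (69.2%) held the CHR letters and 21 (80.8%) the CCAAT box, against 20.2% and 41.1% of all genes. The 10 replication genes with E2F letters had a median log2 fold change of -1.27 in cultured cells, with 6 below WT in both KO samples, and the 25 without had -0.56, with 12 below. Replication genes with the CCAAT box had a median of -0.81 and those without -0.52. In mitotic genes the medians were -0.81 with and -0.77 without the CHR letters, and -0.76 with and -1.27 without the CCAAT box. For the E-box they were 0.30 with and 0.03 without in sarcomere genes, and -0.24 and 0.75 in early differentiation genes. Mcm4, Foxm1, Rb1 and Sntb1 had no entry in the promoter table. A match is a description of letters and not evidence of a bound factor.

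Rrm2 (ENSMUSG00000020649, chr12:24708241-24714146), the small subunit of ribonucleotide reductase that limits the supply of deoxynucleotides, had 39.4 and 37.2 CPM in the WT samples and 7.96 and 3.19 CPM in the KO samples. The WT samples were nearly equal, and both KO samples lay far below them. It fell by 2.79 on the log2 scale (SE 0.45, adjusted p = 0.0356). Mcm4 (ENSMUSG00000022673, chr16:15623897-15637400), a subunit of the replicative helicase, had 25.5 and 34.6 CPM in WT and 7.96 and 5.02 CPM in KO and fell by 2.204 (SE 0.37, adjusted p = 0.0429). The other members of the helicase ring did not pass the test. Mcm2 had 48.2 and 52.5 CPM in WT and 41.9 and 15.5 CPM in KO, and Mcm3 had 39.9 and 49.9 CPM in WT and 29.3 and 11.2 CPM in KO. In these, as in E2f1 and E2f2 below, KO replicate 2 was the lower of the KO samples.

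Chromatin assembly on new DNA showed the same direction, in genes that DESeq2 called and edgeR did not. Chaf1a, the large subunit of the histone chaperone CAF-1, had 10.5 and 9.20 CPM in WT and 1.03 and 1.83 CPM in KO, with a log2 fold change of -2.77 (SE 0.58, adjusted p = 0.108 by edgeR and 0.00692 by DESeq2). Uhrf1, which carries DNA methylation through replication, had 26.8 and 24.5 CPM in WT and 7.45 and 6.39 CPM in KO, with a log2 fold change of -1.89 (SE 0.43, adjusted p = 0.133 by edgeR and 0.0138 by DESeq2). In both genes the KO samples were close to each other and the groups were well apart. The exons of Chaf1a overlap those of Ubxn6 on the other strand, over more bases than the overlaps given below for Rb1 and Foxm1. The strand setting of the counting is not given, so reads of Ubxn6 may be among the counts of Chaf1a. The level of Ubxn6 is not reported here.

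Among the regulators upstream of replication 1 gene passed. Rb1 (ENSMUSG00000022105, chr14:73183673-73325822, minus strand), the retinoblastoma protein that restrains E2F, had 10.8 and 11.8 CPM in WT and 49.8 and 63.2 CPM in KO. It rose by 2.33 (SE 0.34, adjusted p = 0.0175), and in quiescent cells it had 14.3 ± 2.32 CPM in WT against 16.2 ± 2.33 CPM in KO (SD, n = 4). In CPM the cultured WT samples were thus near the quiescent level of Rb1, and the cultured KO samples several times above it. CPM gives a share of the library and not an amount per cell. The exons of Rb1 share 408 bases with Lpar6 and 488 bases with Rcbtb2 on the other strand, and the strand setting of the counting is not given. Lpar6 had 33.6 and 18.8 CPM in WT and 8.99 and 22.1 CPM in KO, and Rcbtb2 had 3.27, 9.20, 5.65 and 12.3 CPM in the same order. In both neighbours the genotypes overlapped.

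E2f1 had 37.9 and 35.9 CPM in WT and 13.9 and 3.19 CPM in KO, a log2 fold change of -2.12 (SE 0.52, adjusted p = 0.143 by edgeR and 0.0111 by DESeq2). E2f2 had 81.5 and 84.5 CPM in WT and 49.8 and 13.7 CPM in KO, and Rbl1, the pocket protein p107, had 5.88 and 9.63 CPM in WT and 3.85 and 2.97 CPM in KO. All 3 lay below WT in both KO samples without passing the test of edgeR. Over the 13 genes of the E2F and pocket protein list 1 rose, 3 lay above and 4 below WT in both KO samples, and the median was -0.29 (-0.49 without KO replicate 1, -0.12 without WT replicate 2). The list holds activators and restraining members side by side.

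None of 16 G1 cyclins, kinases and inhibitors passed, 5 lay below and 3 above WT, and the median log2 fold change was -0.13 (-0.40 without KO replicate 1). Ccnd1, the cyclin D that growth factors induce, had 307 and 359 CPM in WT and 180 and 149 CPM in KO, a log2 fold change of -1.02 (SE 0.46). Ccnd2 had 63.5 and 18.4 CPM in WT and 14.1 and 15.1 CPM in KO, where WT replicate 1 alone was high. Cdk6 had 42.1 and 43.3 CPM in WT and 34.9 and 21.0 CPM in KO. Ccne1, which drives the step into S phase, was near the limit of detection, with 7 and 3 counts in WT and 1 and 0 in KO.

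**Figure D2:**
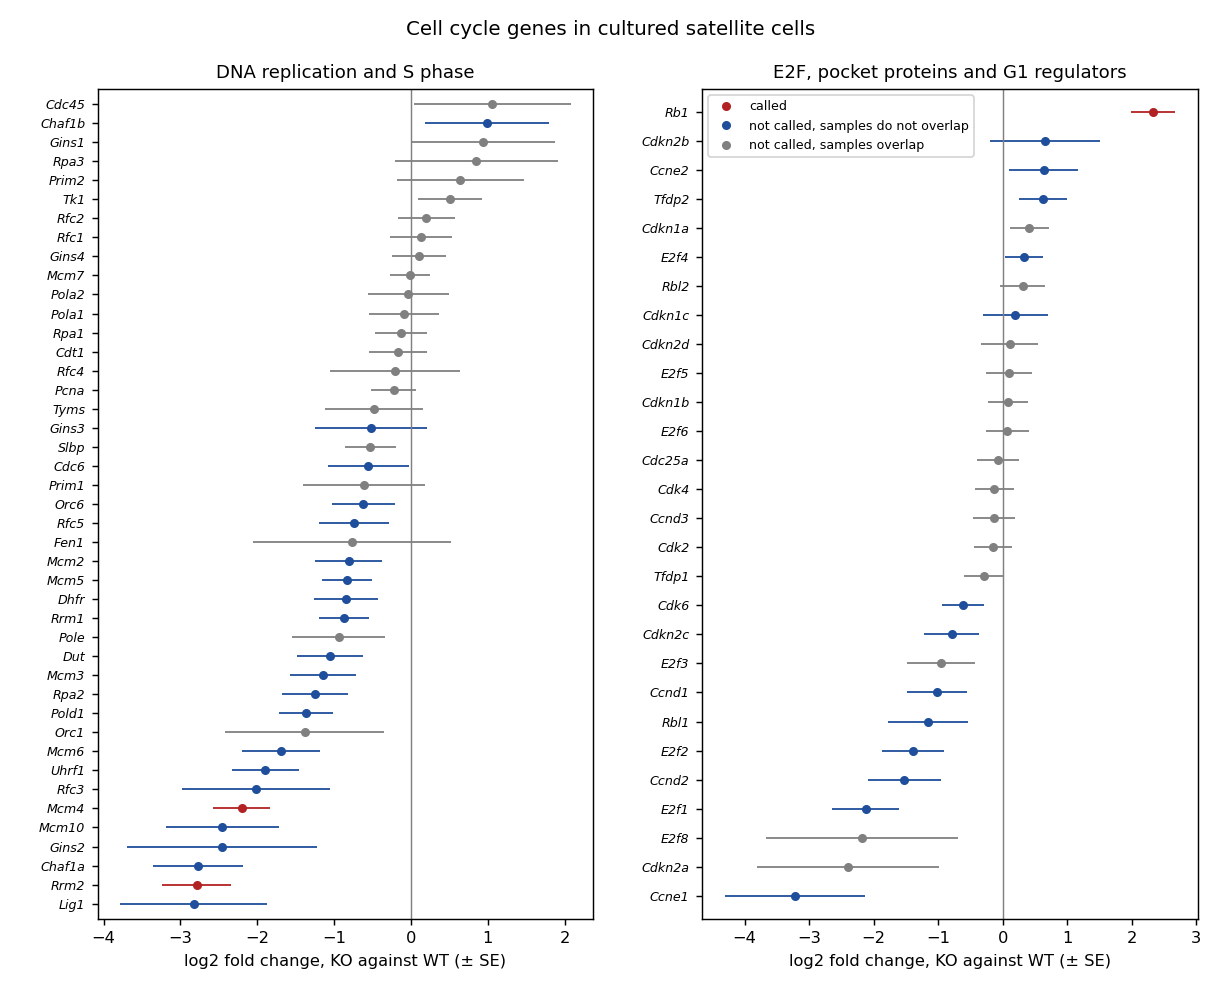
Log2 fold change of KO against WT with its standard error for the 43 genes of DNA replication (left) and for 28 E2F, pocket protein and G1 genes (right); E2f7, with a standard error of 2.46, is not drawn. Red marks genes that passed, blue genes whose WT and KO samples do not overlap and grey the rest; most replication genes lie left of 0, and Rb1 at 2.33 lies alone at the far right.

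Genes of G2 and mitosis also lay lower in the KO. Of 32 genes 1 fell and none rose, 11 lay below WT in both KO samples and 1 above, and the median log2 fold change was -1.02, or -0.59 without WT replicate 1 and -2.12 without KO replicate 2. The median was negative for all 4 pairs of samples but nearly 0 (-0.06) for KO replicate 2 against WT replicate 2. Summed over the list, the level was 131 and 84.5 CPM in WT and 45.5 and 60.7 CPM in KO.

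Foxm1 (ENSMUSG00000001517, chr6:128362967-128376146), the forkhead factor that turns on mitotic genes, had 9.97 and 7.44 CPM in WT and 0.771 and 0.913 CPM in KO, which are 61 and 17 counts against 3 and 4. It fell by 3.37 (SE 0.60, adjusted p = 0.0480). Its exons share 144 bases with Tex52, which had at most 0.771 CPM in any cultured sample. Cdc20, the activator of the anaphase-promoting complex, had 18.6 and 3.50 CPM in WT and 1.28 and 0.913 CPM in KO, and Mki67, the proliferation antigen Ki-67, had 18.3 and 7.01 CPM in WT and 0.771 and 3.88 CPM in KO. Cdc25b, a phosphatase that opens mitosis, had 15.5 and 17.5 CPM in WT and 7.71 and 8.44 CPM in KO. All 3 lay lower in both KO samples, and only DESeq2 called any of them (Cdc20, adjusted p = 0.00676).

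The checkpoint kinase Chek1, itself a gene of S phase, had 6.70 and 8.76 CPM in WT and 2.31 and 0.684 CPM in KO, a log2 fold change of -2.37 (SE 0.62, adjusted p = 0.201 by edgeR and 0.0437 by DESeq2). Mre11a, the nuclease of the MRN complex at DNA breaks, stood on the other side, with 11.4 and 10.9 CPM in WT and 35.7 and 43.1 CPM in KO (log2 fold change 1.81, SE 0.36, adjusted p = 0.0874 by edgeR and 0.00269 by DESeq2). Its exons share 154 bases with Ankrd49 on the other strand. Of 23 genes of DNA break repair none passed, 7 lay above and 3 below WT, and the median was -0.07 (-0.28 without WT replicate 2, 0.26 without KO replicate 2).

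Of 23 genes of the p53 family and its targets none passed, 7 lay above WT in both KO samples and none below, and the median was 0.21 (0 without KO replicate 1, 0.45 without WT replicate 1). Trp63, the p53 relative of epithelial stem cells, had 1.96 and 1.31 CPM in WT and 12.3 CPM in each KO sample, a log2 fold change of 2.85 (SE 0.66, adjusted p = 0.137 by edgeR and 0.0185 by DESeq2). Ccng1 and Sesn1, a pair of p53 targets, had 253 and 470 CPM and 7.35 and 12.7 CPM in WT, and 578 and 799 CPM and 15.2 and 22.8 CPM in KO. The target Perp had a negative log2 fold change (-2.27, SE 0.95), with 7.03 and 0 CPM in WT and 0.514 and 1.14 CPM in KO. Only WT replicate 1 was high there. At an unadjusted p under 0.05 by edgeR, 5 genes of the list were higher in the KO and 1 lower. Trp53 itself overlapped between the genotypes, with 142 and 106 CPM in WT and 135 and 173 CPM in KO.

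The lists of muscle proteins held 4 genes that rose: Myh8 in early differentiation, Pdlim3 in the sarcomere, and Sntb1 and S100a1 in excitation, calcium handling and the dystrophin complex. Pdlim3 (ENSMUSG00000031636, chr8:45885461-45919548), an alpha-actinin partner at the Z-disc, had 41.2 and 80.6 CPM in WT and 254 and 360 CPM in KO. It rose by 2.35 (SE 0.37, adjusted p = 0.0276), from a level of 25.4 ± 5.29 CPM in quiescent WT against 21.4 ± 5.09 CPM in quiescent KO cells (SD, n = 4). Both KO samples were several times above both WT samples.

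Sntb1 (ENSMUSG00000060429, chr15:55636388-55906949), beta-1 syntrophin of the dystrophin complex, had the smallest adjusted p of all genes. It had 3.43 and 5.25 CPM in WT and 34.9 and 36.5 CPM in KO, a rise of 3.10 (SE 0.42, adjusted p = 0.0112). In quiescent cells it had 22.7 ± 2.03 CPM in WT against 25.6 ± 8.93 CPM in KO, so the low values were those of the cultured WT samples. S100a1 (ENSMUSG00000044080, chr3:90511034-90514392), a calcium-binding protein that acts on the ryanodine receptor, had 3.76 and 6.13 CPM in WT and 18.8 and 33.1 CPM in KO and rose by 2.45 (SE 0.44, adjusted p = 0.0483). Its quiescent levels were 11.1 ± 1.08 CPM in WT against 8.47 ± 1.79 CPM in KO, between the cultured groups.

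Myh8 (ENSMUSG00000055775, chr11:67277124-67308634), the perinatal myosin heavy chain, had 1.31 and 1.75 CPM in WT (8 and 4 counts) and 14.6 and 23.5 CPM in KO (57 and 103 counts). It rose by 3.69 (SE 0.65, adjusted p = 0.0480). The myosin heavy chain genes lie in a cluster of similar sequence, and how reads of several sites were counted is not given. Myh3, the embryonic isoform, had 1.31 CPM in each WT sample and 10.3 and 11.4 CPM in KO (log2 fold change 3.04, SE 0.95, adjusted p = 0.313).

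In the list of early differentiation and fusion, 1 of 22 genes rose and none fell, while 11 lay above and 2 below WT in both KO samples. The median was 0.40 and positive for all 4 pairs of samples (0.36 to 1.13), but 0.10 without KO replicate 2 and 0.69 without KO replicate 1. Myog, the factor that starts terminal differentiation, had 5.23 and 14.01 CPM in WT and 22.1 and 30.8 CPM in KO, and its log2 fold change of 1.55 had a standard error of 1.02. Lmod2, an actin nucleator of the sarcomere, had 34.1 and 62.6 CPM in WT and 82.7 and 154 CPM in KO (log2 fold change 1.31, SE 0.44, adjusted p = 0.360).

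Among the myogenic regulators, Myf6, the late family member MRF4, had 14.4 and 28.0 CPM in WT and 60.6 and 67.8 CPM in KO (log2 fold change 1.63, SE 0.45, adjusted p = 0.235). Eya1, a transcriptional cofactor of myogenic genes, had 6.86 and 11.4 CPM in WT and 18.0 and 21.2 CPM in KO, and Msc, a repressor of MyoD activity, had 22.2 and 39.8 CPM in WT and 20.03 and 7.53 CPM in KO. None of the 18 genes of this list passed, and 3 lay on either side. The median was -0.09 (-0.25 without KO replicate 1).

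Most contractile proteins of the mature fibre overlapped between the genotypes. Of 39 sarcomere genes tested 1 rose (Pdlim3), 8 lay above WT in both KO samples and none below, with a median of 0.27. The median was -0.68 for KO replicate 1 against WT replicate 2, -0.26 without either WT replicate 1 or KO replicate 2, and 0.88 without WT replicate 2. The abundant skeletal actin Acta1 had 2812 and 6131 CPM in WT and 3725 and 7286 CPM in KO, higher in replicate 2 of both genotypes. Xirp1, a protein of stressed and regenerating myofibres, had 34.0 and 35.0 CPM in WT and 99.1 and 107 CPM in KO (log2 fold change 1.58, SE 0.34, adjusted p = 0.118 by edgeR and 0.00881 by DESeq2). Klhl30, a kelch-like protein of muscle, had 13.9 and 15.8 CPM in WT and 45.5 and 70.0 CPM in KO (log2 fold change 1.97, SE 0.38, adjusted p = 0.0681 by edgeR and 0.00223 by DESeq2).

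Of 34 genes of excitation, calcium handling and the dystrophin complex 2 rose (Sntb1 and S100a1), 12 lay above and 1 below WT, and the median was 0.41, or 0.04 without WT replicate 1, 0.13 without KO replicate 2 and 0.85 without WT replicate 2. Sln, sarcolipin, which inhibits the calcium pump SERCA, had 13.2 and 24.96 CPM in WT and 172 and 158 CPM in KO. Its log2 fold change was 3.15, but with a standard error of 0.74 it did not pass (adjusted p = 0.137). Aqp4, a water channel held at the membrane by syntrophin, had 15.7 and 37.7 CPM in WT and 141 and 187 CPM in KO (log2 fold change 2.66, SE 0.71, adjusted p = 0.211). In both genes the lower KO sample was several times the higher WT sample.

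Imprinted genes that act in muscle growth lay above WT in part. H19, the abundant imprinted long RNA of embryonic muscle, had 465 and 903 CPM in WT and 2112 and 3115 CPM in KO (log2 fold change 1.94, SE 0.58, adjusted p = 0.280). Igf2, its growth factor neighbour, had 0.490 and 3.07 CPM in WT and 12.6 and 7.76 CPM in KO (log2 fold change 2.87, SE 0.68, adjusted p = 0.137 by edgeR and 0.0186 by DESeq2), and Peg3 had 41.8 and 40.3 CPM in WT and 99.9 and 123 CPM in KO. The exons of Igf2 overlap those of Gm49394 on the same strand, and how reads of the shared bases were counted is not given. Of 21 imprinted genes none passed by edgeR, 7 lay above and 1 below WT, and the median was 0.19 (0 without WT replicate 2, 0.03 without KO replicate 2, 0.32 without KO replicate 1).

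**Figure D3:**
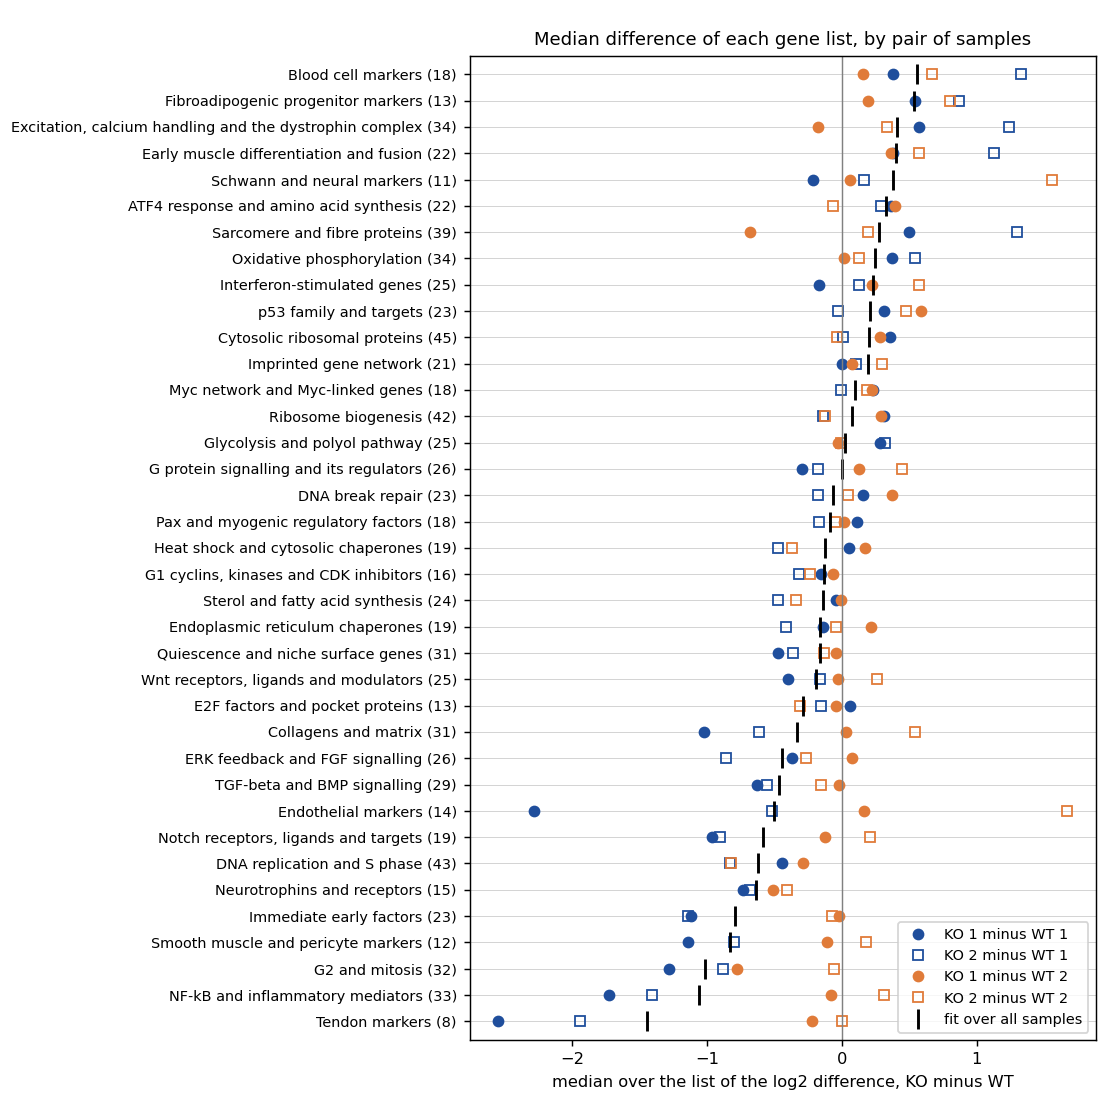
Median over each gene list of the log2 difference between a KO and a WT sample, for the 4 pairs of samples (points) and in the fit over all samples (bars), with the number of genes tested in brackets. DNA replication lies left of 0 for all 4 pairs, while NF-kB lies at -1.73 and -1.41 in the pairs with WT replicate 1 and at -0.08 and 0.31 in those with WT replicate 2.

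Of 31 quiescence and niche genes none passed, 9 lay below and 3 above WT, and the median was -0.16 (-0.46 without WT replicate 2, -0.41 without KO replicate 2). Nes, the intermediate filament nestin of activated progenitors, had 425 and 320 CPM in WT and 152 and 97.2 CPM in KO, a log2 fold change of -1.58 (SE 0.34, adjusted p = 0.116 by edgeR and 0.00148 by DESeq2). Bmp4 had 36.6 and 40.3 CPM in WT and 14.9 and 19.8 CPM in KO (log2 fold change -1.14, SE 0.33, adjusted p = 0.249).

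Neurotrophin signalling was the receptor system with a gene that passed. Ngfr (ENSMUSG00000000120, chr11:95568818-95587735), the receptor p75 that binds all neurotrophins, had 9.97 and 5.25 CPM in WT (61 and 12 counts) and 0.514 and 1.14 CPM in KO (2 and 5 counts). It fell by 3.21 (SE 0.57, adjusted p = 0.0480). Both KO samples lay below both WT samples, and each held few counts.

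Nptx1, a secreted pentraxin, had 175 and 67.0 CPM in WT and 46.0 and 25.8 CPM in KO (adjusted p = 0.181 by edgeR and 0.0211 by DESeq2). Nptx2 had 24 and 4 counts in WT and 0 and 1 in KO. The list of neurotrophins and receptors also holds Nptx1 and Nptx2, which are neither. Of its 15 genes 1 fell, 7 lay below WT, both pentraxins among them, and 3 above. The median was -0.64, negative for all 4 pairs and -0.31 without WT replicate 1. Ngfr is also a marker of Schwann cells. Of 11 Schwann and neural markers Ngfr was the 1 gene that fell, and the summed level of the list was 289 and 287 CPM in WT and 275 and 442 CPM in KO.

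Genes of early activation lay lower in the KO, but mainly against WT replicate 1. Of 23 immediate early genes tested none passed, 9 lay below WT in both KO samples and 1 above, and the median was -0.79. It was -1.12 and -1.14 against WT replicate 1 and -0.02 and -0.07 against WT replicate 2, and -0.13 in the fit without WT replicate 1. Fos had 78.4 and 23.6 CPM in WT and 20.8 and 13.9 CPM in KO, Fosb 169, 39.8, 39.8 and 38.3 CPM, and Atf3 163, 39.4, 24.9 and 44.7 CPM in the same order. In these genes WT replicate 1 was several times above the other 3 samples.

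Egr4, an inducible zinc finger factor, was an exception, with 23.9 and 14.9 CPM in WT and 2.31 and 2.74 CPM in KO (log2 fold change -2.94, SE 0.76, adjusted p = 0.193 by edgeR and 0.0185 by DESeq2). Here both WT samples lay far above both KO samples. Myc had 679 and 629 CPM in WT and 793 and 854 CPM in KO, above WT in both KO samples without passing. Of 18 genes of the Myc network none passed, 6 lay above and none below WT, and the median was 0.09 (0.19 without WT replicate 1, 0.05 without KO replicate 1).

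The same held for inflammation. Of 33 genes of NF-kB and its targets none passed, 9 lay below WT and none above, and the median was -1.06 in the fit, -1.73 and -1.41 against WT replicate 1 and -0.08 and 0.31 against WT replicate 2. Ptgs2, the inducible cyclooxygenase, had 134 and 11.4 CPM in WT and 2.57 and 12.1 CPM in KO, and Il6 had 17.8 and 2.19 CPM in WT and 0.257 and 2.28 CPM in KO. The subunit Rel and the cofactor Bcl3 lay lower in both KO samples, with 37.1 and 17.5 CPM of Rel in WT and 9.76 and 13.2 CPM in KO, and 37.6 and 18.8 CPM of Bcl3 in WT and 13.1 and 11.2 CPM in KO. The subunit Nfkb2 overlapped between the genotypes, with 330 and 215 CPM in WT and 253 and 321 CPM in KO. The part of WT replicate 1 in these lists was not tested beyond leaving it out, which gave a median of 0.01 for NF-kB. Of 25 interferon-stimulated genes none passed, 7 lay above and none below WT, and the median was 0.23 (-0.04 without KO replicate 2).

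Signals downstream of growth factor and G protein-coupled receptors were mixed. In the ERK feedback and FGF list none of 26 genes passed, 8 lay below and 2 above WT, and the median was -0.44, or -0.16 without WT replicate 1 and -0.76 without KO replicate 1. Against WT replicate 2 it was 0.07 for KO replicate 1 and -0.26 for KO replicate 2. Phlda1 had 69.1 and 73.6 CPM in WT and 41.6 and 29.9 CPM in KO (log2 fold change -0.997, SE 0.29, adjusted p = 0.252 by edgeR and 0.0316 by DESeq2), and Etv4, an ETS factor induced by FGF, had 21.4 and 17.1 CPM in WT and 6.94 and 4.33 CPM in KO. In both the WT samples were alike. Fgfr4 had 14.9 and 7.01 CPM in WT and 4.62 and 5.70 CPM in KO.

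In the list of G protein signalling none of 26 genes passed, 5 lay above and 6 below WT, and the median was 0 (0.28 without WT replicate 1, -0.35 without WT replicate 2). Its regulators diverged: Rgs16, which shuts off Gi and Gq signals, had 173 and 106 CPM in WT and 49.3 and 34.2 CPM in KO (log2 fold change -1.75, SE 0.46, adjusted p = 0.211 by edgeR and 0.0268 by DESeq2), while Rgs2 had 7.84 and 6.13 CPM in WT and 14.1 and 18.5 CPM in KO (log2 fold change 1.19, SE 0.32, adjusted p = 0.211 by edgeR and 0.0893 by DESeq2).

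In the Notch, TGF-beta and Wnt lists, 6 of 19, 9 of 29 and 4 of 25 genes lay below WT in both KO samples, against none, 3 and 5 above. Their medians were -0.58, -0.47 and -0.19, and without WT replicate 1 they were 0.02, -0.17 and 0.14. None of their genes passed. Dll1, a Notch ligand, had 32.5 and 14.4 CPM in WT and 5.65 and 9.81 CPM in KO, while the receptor Notch1 had 94.3 and 24.1 CPM in WT and 21.3 and 29.0 CPM in KO, where only WT replicate 1 was high. Bambi, a decoy receptor of the TGF-beta family, had 14.5 and 4.38 CPM in WT and 1.80 and 1.83 CPM in KO (log2 fold change -2.47, SE 0.47, adjusted p = 0.0663 by edgeR and 0.00210 by DESeq2). Fzd1, a Wnt receptor, had 50.5 and 34.6 CPM in WT and 15.2 and 10.0 CPM in KO (log2 fold change -1.77, SE 0.36, adjusted p = 0.0874 by edgeR and 0.000821 by DESeq2). The Wnt receptor Fzd2 went the other way, with 4.25 and 0.876 CPM in WT and 5.39 and 15.7 CPM in KO (log2 fold change 1.87, SE 0.73).

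Of 31 collagen and matrix genes none passed, 6 lay below and 2 above WT, and the median of -0.33 turned to 0.19 without WT replicate 1. Timp1, an inhibitor of metalloproteases, had 41.2 and 8.32 CPM in WT and 5.91 and 2.05 CPM in KO, and Adamts4, an aggrecanase, had 57.2 and 7.44 CPM in WT and 1.28 and 3.19 CPM in KO. In these WT replicate 1 was well above WT replicate 2. Npnt, an integrin ligand of the basement membrane, had 33.5 and 49.9 CPM in WT and 14.6 and 9.35 CPM in KO (log2 fold change -1.79, SE 0.50), with no such excess in WT replicate 1.

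In metabolism 1 gene passed. Sord (ENSMUSG00000027227, chr2:122234749-122265340), sorbitol dehydrogenase of the polyol pathway, was the 1 gene of 25 in the glycolysis and polyol list to pass. It had 14.4 and 27.1 CPM in WT and 62.4 and 115 CPM in KO and rose by 2.13 (SE 0.38, adjusted p = 0.0480). The list median was 0.02 (-0.16 without WT replicate 1, 0.32 without WT replicate 2). Eno1b, a copy of the enolase gene, had 9.97 and 18.0 CPM in WT and 262 and 125 CPM in KO, and its parent Eno1 had 574 and 682 CPM in WT and 501 and 287 CPM in KO. These genes are nearly identical in sequence, so their reads may be split by the counting, and neither passed (adjusted p = 0.137 and 0.582).

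Of 42 ribosome biogenesis genes, 45 ribosomal protein genes and 34 genes of oxidative phosphorylation none passed. Of these, 11, 12 and 11 lay above WT in both KO samples and 0, 2 and 0 below, and the medians were 0.08, 0.20 and 0.25. Without WT replicate 1 they were 0.01, 0.02 and -0.02, and without KO replicate 1 they were -0.15, 0 and 0.23. Rps15 had 642 and 593 CPM in WT and 884 and 865 CPM in KO, and Cox6c, a subunit of cytochrome oxidase, had 11.8 and 11.4 CPM in WT and 21.3 and 24.6 CPM in KO. The shares above WT were 26.2%, 26.7% and 32.4%, against 20.7% of all genes with a mean normalized count over 10. Of 24 genes of sterol and fatty acid synthesis none passed, 3 lay above and 5 below WT, and the median was -0.14 (-0.46 without KO replicate 1, 0.04 without KO replicate 2).

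In the ATF4 stress list none of 22 genes passed and 8 lay above WT, with a median of 0.33, or 0.09 without WT replicate 1. Atf5 had 404 and 540 CPM in WT and 778 and 1214 CPM in KO, and Ddit3, the stress factor CHOP, had 50.6 and 44.7 CPM in WT and 64.0 and 145 CPM in KO. Trib3 had 16.7, 14.4 and 20.5 CPM in both WT samples and KO replicate 1 and 81.9 CPM in KO replicate 2, so that 1 sample carried its difference. Atf4 itself had 916 and 808 CPM in WT and 918 and 1054 CPM in KO. Of 19 endoplasmic reticulum chaperones none passed, 2 lay above and 4 below WT, and the median was -0.16 (0 without WT replicate 1, -0.45 without WT replicate 2).

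Among 19 heat shock genes none passed and the median was -0.12 (-0.40 without KO replicate 1, 0.05 without KO replicate 2). Hspa1a and Hspa1b, near-identical copies of inducible HSP70 whose reads may be split, had 1481 and 1695 CPM in WT replicate 1 and between 96.1 and 299 CPM in the other 3 samples. Hspb8, a small heat shock protein of muscle, had 53.4 and 94.6 CPM in WT and 185 and 225 CPM in KO (log2 fold change 1.48, SE 0.44, adjusted p = 0.275).

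The other genes that passed belong to no list. AW551984 (ENSMUSG00000038112, chr9:39587396-39604403) had 0.817 and 5.25 CPM in WT and 33.1 and 46.5 CPM in KO, and with a rise of 3.98 (SE 0.67, adjusted p = 0.0429) it had the largest fold change of the 13. Fbxl16 (ENSMUSG00000025738, chr17:25809085-25821255), an F-box protein, had 4 and 1 counts in WT and 33 and 27 counts in KO, or 0.653 and 0.438 CPM against 8.48 and 6.16 CPM. It rose by 3.63 (SE 0.66, adjusted p = 0.0483), while quiescent cells had 6.23 ± 0.839 CPM in WT against 7.26 ± 2.69 CPM in KO. Klhl25 (ENSMUSG00000055652, chr7:75848310-75874131), an adaptor of the cullin 3 ubiquitin ligase, had 15.4 and 17.1 CPM in WT and 4.37 and 2.74 CPM in KO and fell by 2.19 (SE 0.40, adjusted p = 0.0483). Quiescent cells had 13.4 ± 0.927 CPM of Klhl25 in WT against 12.2 ± 1.28 CPM in KO (SD, n = 4). For Fbxl16 the KO samples were thus near the quiescent levels and the WT samples below them, and for Klhl25 the WT samples were near and the KO samples below.

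Genes that DESeq2 called and edgeR did not, with KO samples above WT, included the lipid transporter Abca5 (14.2 and 10.5 CPM in WT, 40.8 and 41.1 CPM in KO), the ubiquitin ligase Trim35 (84.5 and 81.0 CPM in WT, 159 and 208 CPM in KO), Ilvbl (6.21 and 6.13 CPM in WT, 19.3 and 26.2 CPM in KO) and Ppp1r9a, neurabin (0.817 and 2.19 CPM in WT, 7.96 and 7.76 CPM in KO, adjusted p = 0.0511 by edgeR). Below WT were Lbh, a cofactor of transcription (56.7 and 41.2 CPM in WT, 18.2 and 20.1 CPM in KO), Smim3 (24.8 and 22.3 CPM in WT, 9.50 and 5.25 CPM in KO) and Gadd45b (366 and 162 CPM in WT, 107 and 95.8 CPM in KO). In all 7 the groups did not overlap. Chsy3, with 21.6 CPM in WT replicate 1 and 0.771 to 1.31 CPM in the other 3 samples, and Vasn, with 129 CPM in WT replicate 1 and 12.1 to 27.1 CPM in the others, were calls of the same test that rested on WT replicate 1.

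RNA of other cell types was present in each sample. The endothelial junction genes Cdh5, Pecam1 and Cldn5 had 226, 142 and 183 CPM in WT replicate 1 and 28.5, 32.4 and 8.32 CPM in WT replicate 2. In KO replicate 1 they had 24.4, 26.97 and 21.6 CPM, and in KO replicate 2 they had 91.9, 96.3 and 32.9 CPM. None of the 14 endothelial markers passed, and all 14 overlapped between the genotypes. Of the tendon markers Thbs4 had 243 CPM in WT replicate 1 against 13.6 CPM in WT replicate 2, and Tnmd 21.7 against 2.63 CPM, while the KO samples had 21.1 and 27.1 CPM of Thbs4 and 1.54 and 2.05 CPM of Tnmd.

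Of 12 smooth muscle and pericyte markers none passed, 2 lay above and 2 below WT, and the median was -0.83, or -0.11 without WT replicate 1. The list includes Des, which muscle cells also express, and its summed level was 1011 and 1141 CPM in WT and 1056 and 1421 CPM in KO. Its mean log2 CPM was 4.51 in WT replicate 1 against 3.37 in WT replicate 2 and 3.29 and 3.55 in the KO samples, so WT replicate 1 stood apart here too. Of 13 markers of fibroadipogenic progenitors none passed and 6 lay above WT, with summed levels of 836 and 382 CPM in WT and 446 and 729 CPM in KO. Of 18 blood cell markers none passed, 6 lay above and 1 below WT, with summed levels of 52.9 and 66.6 CPM in WT and 74.5 and 120 CPM in KO. The part of these cells in the differences between genotypes was not tested.

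**Figure D4:**
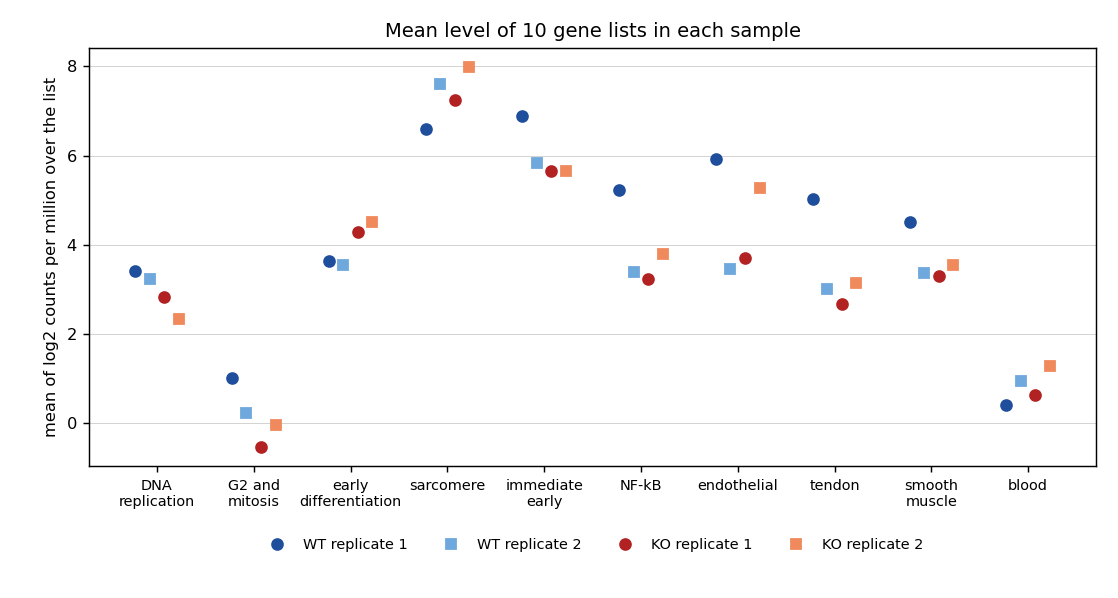
Mean of log2 CPM over 10 gene lists in each cultured sample. For DNA replication and early differentiation the WT samples lie together and both KO samples to one side, whereas for the immediate early, NF-kB, endothelial and tendon lists WT replicate 1 lies apart from WT replicate 2.

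In quiescent cells none of the 13 genes passed, their log2 fold changes were at most 1.27 in size, and in 12 of 13 the 4 KO and 4 WT samples overlapped. The difference of the KO effect between the states was tested for every gene, and none of 25771 passed (smallest adjusted p 0.0573, for Myh8, with 1699 genes at an unadjusted p under 0.05). DESeq2 called 45 genes in that comparison.

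**Figure D5:**
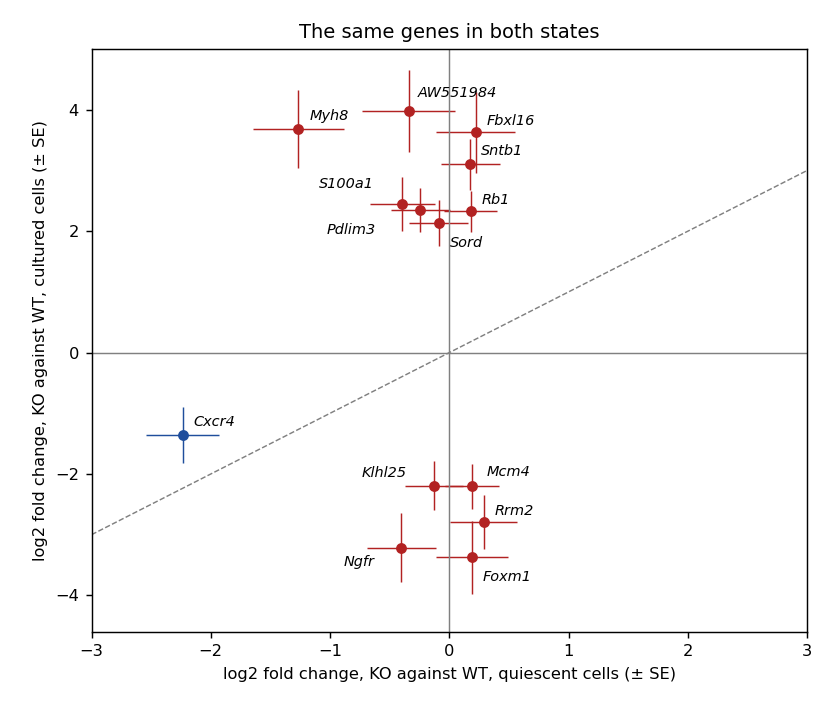
Log2 fold change of KO against WT in cultured cells against that in quiescent cells, each with its standard error, for the 13 genes that passed in culture (red) and Cxcr4 (blue); the dashed line marks equal change. The 13 genes lie far from the line and near 0 in quiescent cells except Myh8 at -1.27, and Cxcr4 is lower in both states.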

How the data were processed

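RNA of sorted satellite cells was sequenced as poly(A) libraries. The deposited table holds raw read counts per gene, made by the authors with Trim Galore 0.6.0, STAR 2.7.2a and Rsubread on GRCm38.p6 (mm10), and the submitters' notes also name DESeq2 1.34.0. How reads of several sites and strands were counted is not given in the sources used here. Neighbours with overlapping exons are not named for every gene. Counts of all 12 samples were fitted together in 4 groups with edgeR 4.0.16 (R 4.3.3, TMM, filterByExpr, quasi-likelihood test, Benjamini-Hochberg adjustment over 25771 genes), and DESeq2 1.42.0 was an alternative. A gene passed at an adjusted p under 0.05, a log2 fold change beyond 1 and a mean normalized count over 10. The pseudocount of fold changes was 0.125. SE is the size of the log2 fold change divided by the root of F. Positions come from GENCODE on GRCm38 and promoters from RefSeq on GRCm38.p6. The pipeline was tested on simulated data.

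Named genes were Cxcr4, every gene that passed, up to 15 genes per direction that DESeq2 called with groups that did not overlap, up to 4 genes of lowest unadjusted p and the first 2 of each list, satellite cell markers, and parents of near-identical copies. Lpar6, Rcbtb2 and Tex52 were added after their values were seen, as overlapping neighbours. Members and lists were chosen with earlier results of these data known. Replicates differed by more than sampling noise. Samples with the same number did not deviate together (r = -0.0243 over 12232 genes), so the numbers were not used as pairs. Intervals between samples rest on 2 samples per group, and the totals of 3172164 to 5427280 counts limit the precision of genes with few counts. Values of 2 further genes are not reported here.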

Additional observations from a re-analysis of the deposited data

Results flagged for a closer look

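Myh8, the perinatal myosin heavy chain, moved in opposite directions in the 2 states. In cultured cells both KO samples lay above both WT samples (19.1 ± 6.26 against 1.53 ± 0.314 CPM, SD, n = 2), and in quiescent cells all 4 KO samples lay below all 4 WT samples (1.97 ± 0.565 against 4.76 ± 1.98 CPM, SD, n = 4). The KO effect was 4.95 higher on the log2 scale in cultured than in quiescent cells (SE 0.75, unadjusted p = 2.225e-06). By edgeR's quasi-likelihood test the difference did not pass after adjustment over 25771 genes (adjusted p = 0.0573). In quiescent cells the log2 fold change of -1.27 (SE 0.38) did not pass.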

How the results depend on the processing

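The number of genes called in cultured cells was 13. It was 8 with DESeq2 size factors in edgeR, 325 with no filter on low counts, 23 with a mean of 10 counts required, 20 with a robust fit, 145 by DESeq2 on all samples, 29 by DESeq2 and 3 by edgeR on the activated samples alone, and 0 to 209 when 1 sample was left out. With a replicate block it was 10 on all samples (7 of the 13 genes among them) and 23 on the activated samples alone (7 of the 13). The replicate numbers do not pair the samples. On the activated samples alone without a block, the 29 genes of DESeq2 held 8 of the 13 and the 3 genes of edgeR held 0. For the difference between the states no gene was called. There were 170 with no filter on low counts, 8 with a robust fit, 45 by DESeq2, 3 with a replicate block, 1 without the ribosomal RNA gene, and 0 to 82 when 1 sample was left out. With a lone sample left in a group, that sample is assumed to vary like the other groups. The 13 genes kept their direction in every setting, which says little, as their WT and KO samples did not overlap. The causes of these changes were not tested. Of the log2 fold changes, that of Cxcr4 ran from -1.41 to -1.34, with a replicate block among the settings. The Myod1 log2 fold change turned from 0.05 to -0.01117 with DESeq2 size factors, -0.0229 with a mean of 10 counts, -0.0111 by DESeq2 on all samples, -0.0208 by DESeq2 and -0.005014 by edgeR on the activated samples, and -0.0125 with a replicate block on those. Leaving out 1 sample turned the sign of Myod1 (-0.29 to 0.26), Acta1 (-0.32 to 0.88), Cldn5 (-2.83 to 1.61), Cdh5 (-2.45 to 0.92), Pecam1 (-1.76 to 0.82), Thbs4 (-3.41 to 0.73), Sdc4 (-0.22 to 0.40), Myf5 (-0.89 to 0.22) and Pax7 (-0.63 to 0.19). Genes with fewer than 10 counts in a group, such as Foxm1, Ngfr and Fbxl16, are limited by depth.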
